A study of Mus musculus with 20 samples.

Results

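Sult1e1, which encodes the oestrogen sulfotransferase, is 1 gene of the 48440 in a table of raw RNA-seq counts from whole mouse liver, and the same table holds 20 other cytosolic sulfotransferase genes. It was chosen by its measured levels across the 4 groups of this experiment, so those levels are a description here and no test is given for them. All 20 mice were wild-type C57BL/6 females, 8 weeks old at the start of the experiment, and every mouse received an antibody. The groups of 5 livers were Isotype + Vehicle (IgG2a control antibody, no hormone), Isotype + CORT (the same antibody with corticosterone), αACBP + Vehicle (a monoclonal antibody that neutralizes acyl-CoA binding protein, ACBP, without hormone) and αACBP + CORT (both). The mice were killed at the end of the 5th week of treatment. The comparisons address how excess glucocorticoid alters the liver and whether neutralizing ACBP changes that response. The hour of death is not given in the sources used here. Each liver is labelled as a biological replicate, and p-values measure the spread between these livers.

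Oestrogen sulfotransferase moves a sulfate group from the donor PAPS onto oestradiol and oestrone. The sulfated hormone no longer binds the oestrogen receptors, and sulfatases can free it again. In the liver of adult mice the gene is known for a low basal level and for its response to nuclear receptors, among them the glucocorticoid receptor, LXR and CAR. Corticosterone is the main glucocorticoid of mice and acts through the glucocorticoid receptor.

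The Sult1e1 row carries the identifier ENSMUSG00000029272.8. In GRCm39, as annotated by GENCODE M39, the gene spans 15634 bases of chromosome 5 (minus strand, start 87723828, end 87739461), with 1 transcript of 8 exons and 1250 exon bases. The coding sequence begins in exon 2. It overlapped 0 other genes, and 0 of its 1221 words of 30 bases were found in any of 481955 transcripts of other genes, on either strand, so its counts do not share reads with a close copy in that annotation. The nearest gene was another sulfotransferase, Sult1d1, 6895 bases away on the same strand, followed on that side by Sult1b1 at 37756 bases.

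The 250 bases before the start site are shown for Sult1e1 and for Sult1d1, since Sult1d1 is the nearest gene and its levels are set beside those of Sult1e1. They are read 5′ to 3′ along each gene from the RefSeq table of build GRCm38.p6, Sult1e1 from chr5:87591612-87591861 and Sult1d1 from chr5:87569007-87569256, both on the minus strand. Capitals mark a match to the nuclear receptor hexamer AGGTCA on either strand, which reads TGACCT on the strand shown.
Sult1e1: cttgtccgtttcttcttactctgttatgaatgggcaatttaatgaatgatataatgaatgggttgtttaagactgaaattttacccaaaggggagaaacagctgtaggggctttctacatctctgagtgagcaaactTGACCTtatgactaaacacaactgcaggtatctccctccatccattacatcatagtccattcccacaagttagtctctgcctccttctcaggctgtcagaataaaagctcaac
Sult1d1: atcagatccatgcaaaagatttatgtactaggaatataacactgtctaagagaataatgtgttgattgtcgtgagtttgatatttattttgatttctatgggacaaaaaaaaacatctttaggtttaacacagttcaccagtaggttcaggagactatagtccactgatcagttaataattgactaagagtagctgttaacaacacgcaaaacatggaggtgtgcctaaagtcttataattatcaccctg

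The single match in Sult1e1 began 113 bases before the start site, and the window of 300 bases that also takes in the 50 bases after the start held no other. Of 32851 promoters of that length, 16.3% held AGGTCA on either strand. The glucocorticoid response element hexamer AGAACA occurred 0 times in the windows of Sult1e1 and Sult1d1 and in 19% of all promoters. The STAT5 palindrome TTCNNNGAA also occurred 0 times in both windows and in 8.3% of all promoters. A match is a description of letters, and sites farther away were not searched.

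Sult1e1 was low in Isotype + Vehicle livers, with 0 counts in 2 of 5, and abundant in 4 of the 5 livers given corticosterone with the isotype antibody. Levels are CPM, the counts divided by library size per 1000000, with library sizes scaled by TMM (trimmed mean of M values). The Isotype + Vehicle livers held 0, 38, 65, 0 and 54 counts, in replicate order, which are 0, 2.33, 3.30, 0 and 3.24 CPM. In the Isotype + CORT livers there were 2782, 2616, 361, 3828 and 1983 counts, or 190, 131, 19.3, 250 and 128 CPM. None of these 5 livers overlapped the control range, and the third stood well below the rest of its group.

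With αACBP and no hormone, the counts were 7, 0, 29, 3 and 39, which are 0.391, 0, 1.75, 0.165 and 1.88 CPM. All 5 of these values lay inside the Isotype + Vehicle range. The αACBP + CORT livers held 339, 309, 395, 29 and 2 counts, or 22.8, 19.9, 22.7, 1.72 and 0.108 CPM. These livers divided into 3 near 20 CPM and 2 that lay inside the range of both vehicle groups. The 3 higher livers were just above the lowest Isotype + CORT liver, and all 5 were below the other four.

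**Figure D1:**
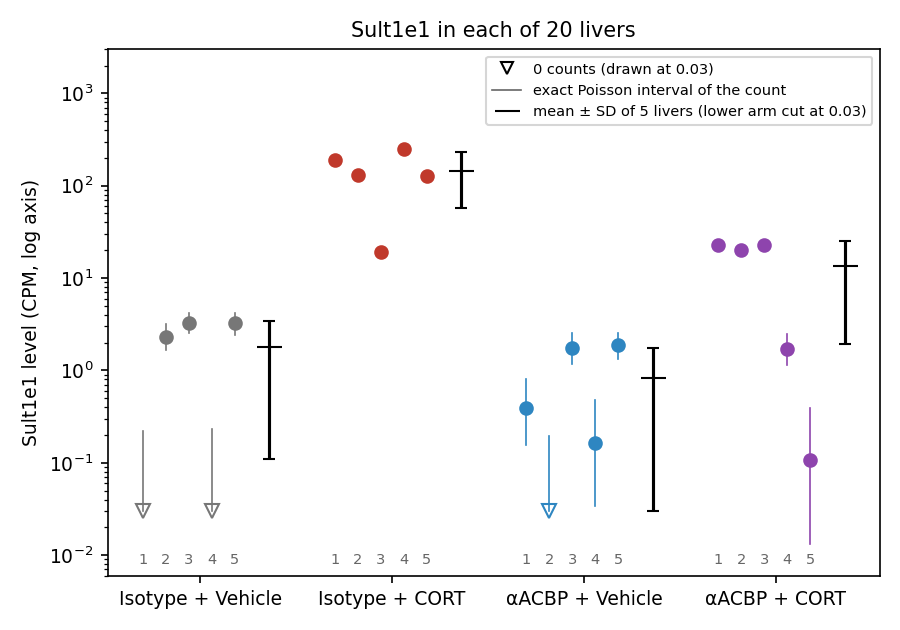
Level of Sult1e1 in CPM (log axis) in each of the 20 livers, by group, with replicate numbers along the foot. Thin lines are exact 95% Poisson intervals of the counts, open triangles are livers with 0 counts, and black bars are the mean ± SD of 5 livers, cut at 0.03 CPM. Isotype + CORT reached 250 CPM, and the highest αACBP + CORT liver was at 22.8 CPM.

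Counting error was small where the gene was abundant and large where it was not. The exact 95% Poisson interval ran from 242 to 258 CPM in the highest liver and from 17.3 to 21.4 CPM in the third Isotype + CORT liver. For the αACBP + CORT liver with 2 counts it ran from 0.0131 to 0.390 CPM. For a count of 0 the interval reached up to 0.231 CPM in the Isotype + Vehicle livers and 0.198 CPM in the αACBP + Vehicle liver. These intervals cover counting error only.

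The group means were 1.77 ± 1.66 CPM (SD, n = 5) for Isotype + Vehicle, 144 ± 85.5 for Isotype + CORT, 0.838 ± 0.905 for αACBP + Vehicle and 13.4 ± 11.5 for αACBP + CORT. Ordered by median, Isotype + CORT (131 CPM) came first, followed by αACBP + CORT (19.9), Isotype + Vehicle (2.33) and αACBP + Vehicle (0.391). Isotype + CORT and αACBP + CORT touched through a single Isotype + CORT liver, αACBP + CORT shared its 2 lowest livers with the range of Isotype + Vehicle, and the vehicle groups did not separate.

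Under the isotype antibody, the mean with CORT was 81.0 times the mean with vehicle, and the fitted log2 fold change was 6.32 ± 1.25 (SE). Under CORT, the isotype mean was 10.7 times the αACBP mean, and the fitted log2 fold change of αACBP against isotype was -3.42 ± 1.06. Leaving out the third Isotype + CORT liver gave 6.60 and -3.70 for these comparisons. Leaving out the αACBP + CORT liver with 2 counts gave -3.10 for the second.

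CORT still went with a higher Sult1e1 mean under αACBP, 16 times that of αACBP + Vehicle, with a log2 fold change of 3.98 ± 1.21. The αACBP + CORT mean was 7.58 times that of Isotype + Vehicle (log2 fold change 2.89 ± 1.12). Without hormone, the antibody comparison gave -1.09 ± 1.27, a value smaller than its standard error. The difference between the CORT effects under the antibodies, on the log2 scale, was -2.33 ± 1.64. These 6 values share control livers and are set side by side only.

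The livers had 14934926 to 20299999 counts on genes. The median correlation of a liver with its own group was 0.873 to 0.952, lowest for replicate 5 of αACBP + Vehicle. The 7 hepatocyte markers measured, Alb and Hnf4a among them, summed to 38393 to 139291 CPM over all livers. In whole tissue, fewer cells of a type and less RNA per cell cannot be told apart.

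Among its relatives, Sult1e1 was one of the low genes in control liver and one of the high ones in Isotype + CORT. Levels between genes are compared as CPM per kb of exon, with exon lengths from GENCODE M39. On that scale it was at 1.42 ± 1.33 in Isotype + Vehicle, place 15 of the 21 sulfotransferase genes, and at 115 ± 68.4 in Isotype + CORT, place 4. It took 10% of the summed family level in Isotype + CORT and 0.196% in Isotype + Vehicle. In αACBP + Vehicle it was in place 16, with 0.117%, and in αACBP + CORT in place 9, with 1.68%.

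The genes around it in Isotype + CORT were Sult1a1, a phenol sulfotransferase, at 190 ± 36.3 CPM per kb, and Sult2a8 at 60.7 ± 29.0. Single livers of Sult1e1 ran from 15.4 to 200 CPM per kb, so its place beside these genes was not settled by 5 livers. Sult2a1, a hydroxysteroid sulfotransferase, was the highest with 396 ± 211, and Sult1d1 was next with 209 ± 99.9. Sult1c1, Sult4a1 and Sult6b2 were at 0 in every liver.

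**Figure D2:**
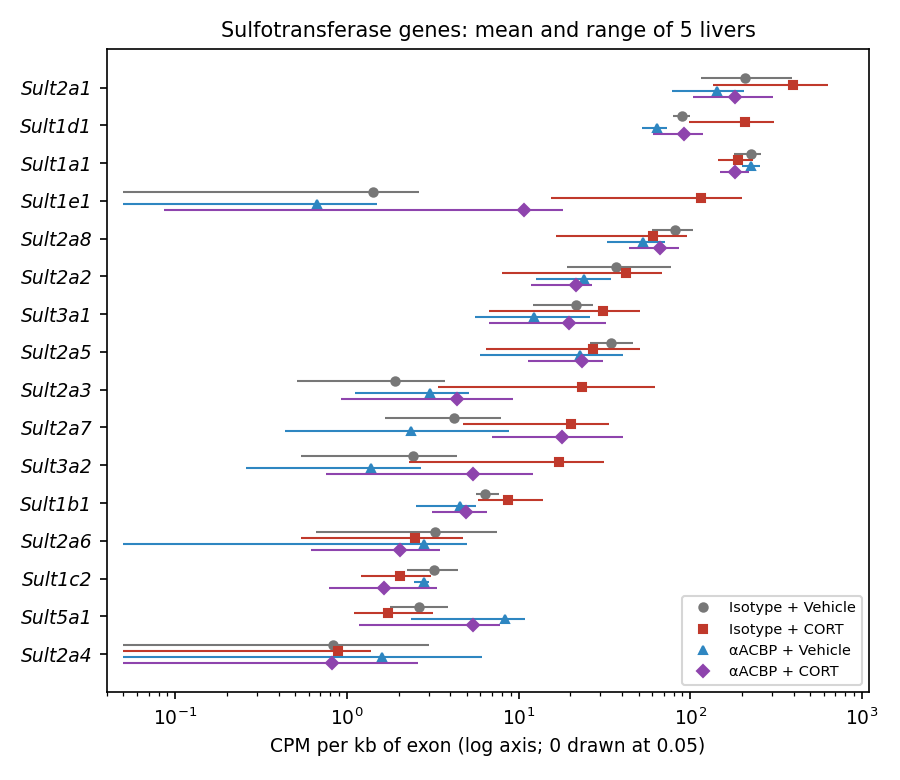
Level of the sulfotransferase genes that reached 0.5 CPM per kb of exon in at least 1 group (log axis), with symbols for the mean and lines for the range of 5 livers in each group. Sult1e1 goes from 0.670 in αACBP + Vehicle to 115 in Isotype + CORT.

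The 134 companion genes, listed by role in oestrogen sulfation and its control, were tested in the model fitted across all 16071 tested genes, and 123 of them passed its filter on low counts. A call needed an adjusted p no higher than 0.05 together with a log2 fold change of 1 or more in either direction. For CORT against vehicle under isotype, 8 companion genes were called, 6 higher and 2 lower, beside 1.94% of all tested genes (0.51% higher and 1.43% lower). For αACBP against isotype under CORT, 1 was called, lower, beside 0.597% of all genes (0.504% higher and 0.0933% lower). Their median log2 fold changes were 0.03 and -0.08 in these comparisons, and 0.00 and 0.01 over all tested genes.

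For αACBP against isotype under vehicle, 10 were called, 7 higher and 3 lower, beside 1.3% of all genes (0.684% higher and 0.616% lower). No companion gene was called for CORT against vehicle under αACBP, where 0.212% of all genes were, and none for αACBP + CORT against Isotype + Vehicle, where 0.0684% were. None was called for the interaction of CORT and antibody, beside 0.143% of all genes. At an unadjusted p under 0.05 these last 3 comparisons held 40, 19 and 27 companion genes by edgeR, beside 12.7%, 7.59% and 10.6% of all tested genes, and the Wald test of DESeq2 called 14, 1 and 11.

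Sult1d1, which sulfates catecholamines and other small phenols, was the only companion gene called in opposite directions by CORT and by αACBP on top of CORT. Its Isotype + Vehicle levels were 239, 208, 199, 250 and 230 CPM. In Isotype + CORT they were 773, 735, 274, 590 and 245 CPM. Of these, 4 livers were above every control liver and the fifth lay among the controls.

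The αACBP + Vehicle levels of Sult1d1 were 163, 183, 131, 160 and 166 CPM, and those of αACBP + CORT were 218, 276, 297, 214 and 152 CPM. Its log2 fold change was 1.22 ± 0.25 for CORT under isotype (edgeR, adjusted p = 0.00523) and -1.18 ± 0.25 for αACBP under CORT (adjusted p = 0.014). The second call was lost without the first Isotype + CORT liver (-0.99), without the fifth αACBP + CORT liver (-1.06), and in a fit of only these 2 groups. Sult1b1, the next gene along, was at 18.4 ± 2.58 CPM in Isotype + Vehicle and 25.3 ± 8.90 in Isotype + CORT (adjusted p = 0.397). The 5 nearest coding genes on the other side, the casein genes Csn1s1, Csn2, Csn1s2a and Csn1s2b with Prr27, had 0 counts in all livers, as did Ugt2a1, Ugt2a2 and Gm43638 beyond Sult1b1.

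Of the 15 sulfotransferase genes tested besides Sult1e1, Sult2a3 also rose with CORT under isotype. It belongs to the hydroxysteroid group and was at 2.00 ± 1.27 CPM in Isotype + Vehicle and 24.8 ± 25.1 CPM in Isotype + CORT (log2 fold change 3.63 ± 0.79, adjusted p = 0.0151). The Isotype + CORT livers were uneven, at 5.61, 3.55, 28.0, 20.9 and 65.7 CPM, and the one at 3.55 lay in the control range. Their order was not that of Sult1e1. Sult2a3 was at 4.59 ± 3.71 CPM in αACBP + CORT (-2.43 ± 0.74 against Isotype + CORT, adjusted p = 0.138). Sult1a1 was at 674 ± 91.7 and 570 ± 109 CPM in the isotype groups (adjusted p = 0.546), and Sult5a1 was called only for αACBP under vehicle (1.67 ± 0.45, adjusted p = 0.0365).

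Papss2, the main gene for the enzyme that makes the sulfate donor in liver, fell with CORT under isotype. It was at 402, 308, 362, 433 and 332 CPM in Isotype + Vehicle and at 99.2, 147, 158, 161 and 132 CPM in Isotype + CORT. The groups did not overlap, and the log2 fold change was -1.40 ± 0.23 (edgeR, adjusted p = 0.000762).

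With αACBP, Papss2 was at 146, 238, 373, 337 and 371 CPM without hormone and at 157, 199, 266, 144 and 293 CPM with it. The αACBP difference under CORT was 0.60 ± 0.22 (adjusted p = 0.222). Papss1, the other synthase, was at 11.1 ± 1.94 and 9.25 ± 2.93 CPM in the isotype groups (adjusted p = 0.734). Bpnt1, a phosphatase that removes the by-product PAP, fell for αACBP under vehicle (-1.20 ± 0.32, adjusted p = 0.0326). No other of the 11 tested genes for sulfate supply and removal was called in any comparison.

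None of the 10 genes for steroid sulfate transport was called by edgeR, and 2 had an unadjusted p under 0.05 with CORT under isotype, as did 15.6% of all tested genes. Slco1b2, an organic anion importer of hepatocytes, passed the adjusted p but not the fold limit with CORT under isotype, at 628 ± 29.0 and 1159 ± 208 CPM (0.88 ± 0.16, adjusted p = 0.00162). The exporters Abcc2 and Abcg2 gave -0.04 (adjusted p = 0.951) and 0.15 (adjusted p = 0.817).

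The genes that form, inactivate or receive oestrogen showed no call by edgeR in any comparison, with 12 of 15 tested. With CORT under isotype, 3 had an unadjusted p under 0.05, beside 15.6% of all tested genes, and for αACBP under vehicle 6 did, beside 20.6%. In the latter comparison Akr1c6 (-0.86 ± 0.23, adjusted p = 0.0289) and Hsd17b12 (-0.92 ± 0.26, adjusted p = 0.0371) passed the adjusted p but not the fold limit. The oestrogen receptor gene Esr1 was at 42.1 ± 5.84 CPM in Isotype + Vehicle and 30.5 ± 3.46 in Isotype + CORT (-0.47, adjusted p = 0.231). Hsd17b2, which turns oestradiol into oestrone, was at 201 ± 16.9 and 143 ± 28.7 CPM (adjusted p = 0.190). The aromatase gene Cyp19a1 was at 0 in every liver.

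Among 14 genes of the glucocorticoid receptor and its targets, 1 was called with CORT under isotype, beside 1.94% of all tested genes. By edgeR, 3 of the 14 had an unadjusted p under 0.05, beside 15.6% of all tested genes. Fkbp5, a co-chaperone of the receptor and one of its induced targets, was at 33.2, 45.3, 40.8, 26.1 and 51.1 CPM in Isotype + Vehicle and at 137, 142, 67.6, 177 and 117 CPM in Isotype + CORT. The groups did not overlap, and the log2 fold change was 1.70 ± 0.26 (edgeR, adjusted p = 0.000722). As with Sult1e1, replicate 3 of Isotype + CORT was the lowest of its group and replicate 4 the highest.

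In αACBP + CORT Fkbp5 was at 77.2, 55.0, 92.2, 100 and 59.2 CPM, and the αACBP difference under CORT was -0.74 ± 0.26 (adjusted p = 0.187). Replicate 4, the highest of its group for Fkbp5, held 1.72 CPM of Sult1e1. The receptor gene Nr3c1 was at 48.9 ± 7.11, 48.5 ± 9.75, 40.4 ± 7.69 and 46.7 ± 7.80 CPM in the groups as first listed (-0.01 with CORT under isotype, adjusted p = 0.984). Mt2, a metallothionein and known target, rose for αACBP under vehicle (2.12 ± 0.39, adjusted p = 0.00721). Tat and Pck1, classical targets, gave -0.40 (adjusted p = 0.537) and 0.28 (adjusted p = 0.734) with CORT under isotype. Also in this list, Tsc22d3, Per1, Zbtb16 and Sgk1 were lower in that comparison (-0.67, -1.16, -0.40 and -0.24). Dusp1, Mt2 and Klf9 were higher (1.07, 0.57 and 0.31), and none of these genes was called there.

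Of 9 transcription factors known to act on Sult1e1, none was called by edgeR (3 had an unadjusted p under 0.05 with CORT under isotype, beside 15.6% of all tested genes), and Nr1i3 passed the adjusted p below the fold limit with CORT under isotype. Nr1i3 encodes CAR and was at 683 ± 133 CPM in Isotype + Vehicle and 1315 ± 237 in Isotype + CORT (0.95 ± 0.17, adjusted p = 0.00155). It was at 1058 ± 118 CPM in αACBP + Vehicle and 1001 ± 89.2 CPM in αACBP + CORT. For αACBP under vehicle it gave 0.63 ± 0.17 (edgeR, adjusted p = 0.0274). Nr1h3, which encodes LXRα, gave -0.04 (adjusted p = 0.950). Nr1h2, which encodes LXRβ, passed the adjusted p below the fold limit for αACBP against isotype both with and without CORT. It gave 0.64 ± 0.16 under CORT (edgeR, adjusted p = 0.0492) and 0.63 ± 0.16 under vehicle (adjusted p = 0.0244).

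Cyp2b10, the classical CAR target, rose with CORT under isotype, from 13.2 ± 5.41 to 55.6 ± 52.8 CPM (2.07 ± 0.55, adjusted p = 0.0467). This call was close to the threshold: it was lost in 16 of 20 fits that left out 1 liver. Its Isotype + CORT livers were at 24.8, 47.9, 9.88, 145 and 50.2 CPM, again with replicate 3 lowest and replicate 4 highest. Nr1i3 itself was highest of its group in that replicate 3, at 1648 CPM. Cyp2b10 was at 4.13 ± 1.71 CPM in αACBP + Vehicle and 23.4 ± 9.88 in αACBP + CORT. It gave 2.50 ± 0.57 for CORT under αACBP (adjusted p = 0.0681) and -1.67 ± 0.56 for αACBP under vehicle (adjusted p = 0.0887). Its group means had the order of those of Sult1e1, an order also held by the means of Sult1d1, Mup20 and Cyp2d9, among others. Any part of CAR in the Sult1e1 levels was not tested. Gclm, a glutathione synthesis gene controlled by NRF2, passed the adjusted p in both directions, 0.85 ± 0.19 with CORT (adjusted p = 0.0103) and -0.78 ± 0.19 with αACBP under CORT (adjusted p = 0.0385), each below the fold limit. The LXR targets Abca1 and Srebf1 gave 0.18 (adjusted p = 0.700) and -0.81 (adjusted p = 0.0411) with CORT. For αACBP under vehicle, the sterol exporter gene Abcg5 rose (1.06 ± 0.22, adjusted p = 0.00862) and the oxysterol hydroxylase gene Cyp7b1 fell (-1.09 ± 0.30, adjusted p = 0.0332).

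**Figure D3:**
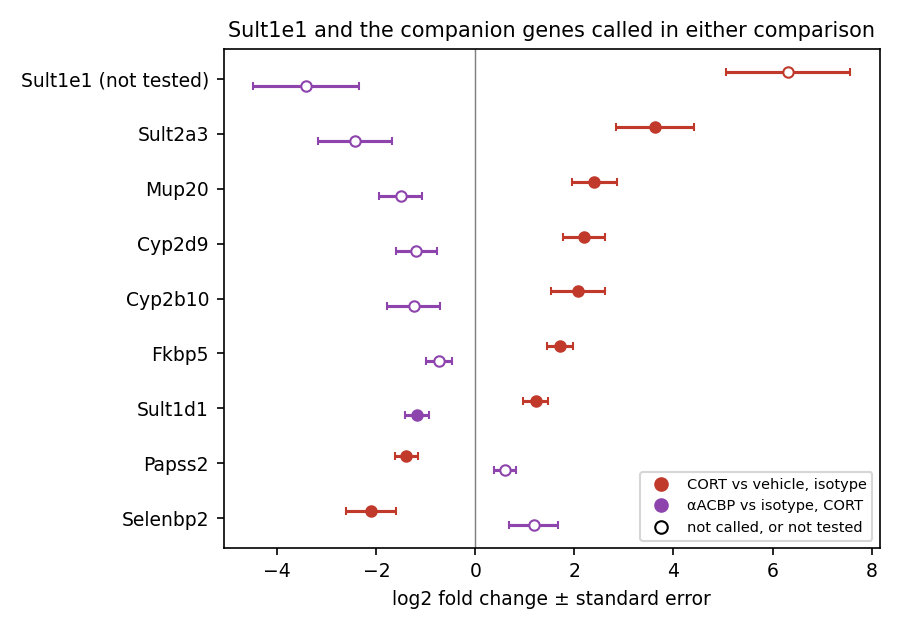
Log2 fold change ± standard error for Sult1e1 and for the 8 companion genes called in either of 2 comparisons, CORT against vehicle under isotype (red) and αACBP against isotype under CORT (purple). Filled symbols were called and open ones were not, and Sult1e1, at 6.32 and -3.42, was not tested. Sult1d1 is filled in both.

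The liver is sexually dimorphic, and these mice were female. Of 8 tested genes known to be higher in male liver, Mup20 and Cyp2d9 rose and Selenbp2 fell with CORT under isotype. The list thus had no single direction, and over all tested genes 0.51% were called higher and 1.43% lower. Mup20, a urinary pheromone protein, was at 38.5 ± 13.9 CPM in Isotype + Vehicle and at 220, 319, 61.8, 168 and 250 CPM in Isotype + CORT (2.40 ± 0.45, edgeR adjusted p = 0.00728). Cyp2d9, a steroid hydroxylase, was at 40.0 ± 9.62 and 182 ± 117 CPM (2.18 ± 0.42, adjusted p = 0.00789). Selenbp2, a selenium binding protein, was at 31.8 ± 10.2 and 7.36 ± 4.14 CPM (-2.11 ± 0.51, adjusted p = 0.0283). Part of each of these 3 genes is shared with a relative: 35.4% of the 100-base words of Mup20, 6.85% of Cyp2d9 and 19.6% of Selenbp2 occur in another gene's transcripts, so their counts are less certain than those of Sult1e1.

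None of the 12 genes known to be higher in female liver was called by edgeR, and 6 had an unadjusted p under 0.05 with CORT under isotype, beside 15.6% of all tested genes. Cyp2a4, a testosterone hydroxylase, had the lowest correlation with Sult1e1 of the companion genes, at 443 ± 63.3, 119 ± 112, 998 ± 238 and 235 ± 175 CPM over the 4 groups (-1.90 with CORT under isotype, adjusted p = 0.126). Of the 7 growth hormone signalling genes, Cish was called, for αACBP under vehicle (1.61 ± 0.45, edgeR adjusted p = 0.0436), beside 1.3% of all tested genes. That call was lost in 13 of 20 fits that left out 1 liver. Stat5b and Igf1 were not called.

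Of 13 clock genes tested, Dbp, Tef and Ciart rose and Arntl fell for αACBP against isotype under vehicle, beside 1.3% of all tested genes called. Their log2 fold changes were 4.31 ± 1.06, 2.11 ± 0.41, 3.24 ± 0.58 and -2.11 ± 0.43 (edgeR, adjusted p = 0.0287, 0.00859, 0.00368 and 0.0108). Dbp, an output factor of the clock, was at 5.42 to 23.5 CPM in Isotype + Vehicle and at 151 to 611 CPM in αACBP + Vehicle.

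For CORT against vehicle under αACBP, edgeR called none of the 13, all 13 had an unadjusted p under 0.05, beside 12.7% of all tested genes, and their median log2 fold change was -1.30. For the interaction none was called and 9 had an unadjusted p under 0.05, beside 10.6%.

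Single CORT livers also differed in Dbp. The αACBP + CORT livers were at 9.61, 6.44, 7.98, 6.98 and 195 CPM, and the one at 195 was the liver with 2 counts of Sult1e1. The Isotype + CORT livers were at 18.7, 22.2, 144, 40.4 and 114 CPM, and the one at 144 was the liver with the lowest Sult1e1 of its group. The liver at 114 CPM of Dbp, though, held 128 CPM of Sult1e1. Any part of the time of day in the Sult1e1 levels was not tested. Without the fifth αACBP + CORT liver, 13 companion genes were called for CORT against vehicle under αACBP and 9 for the interaction, in place of 0 and 0.

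**Figure D4:**
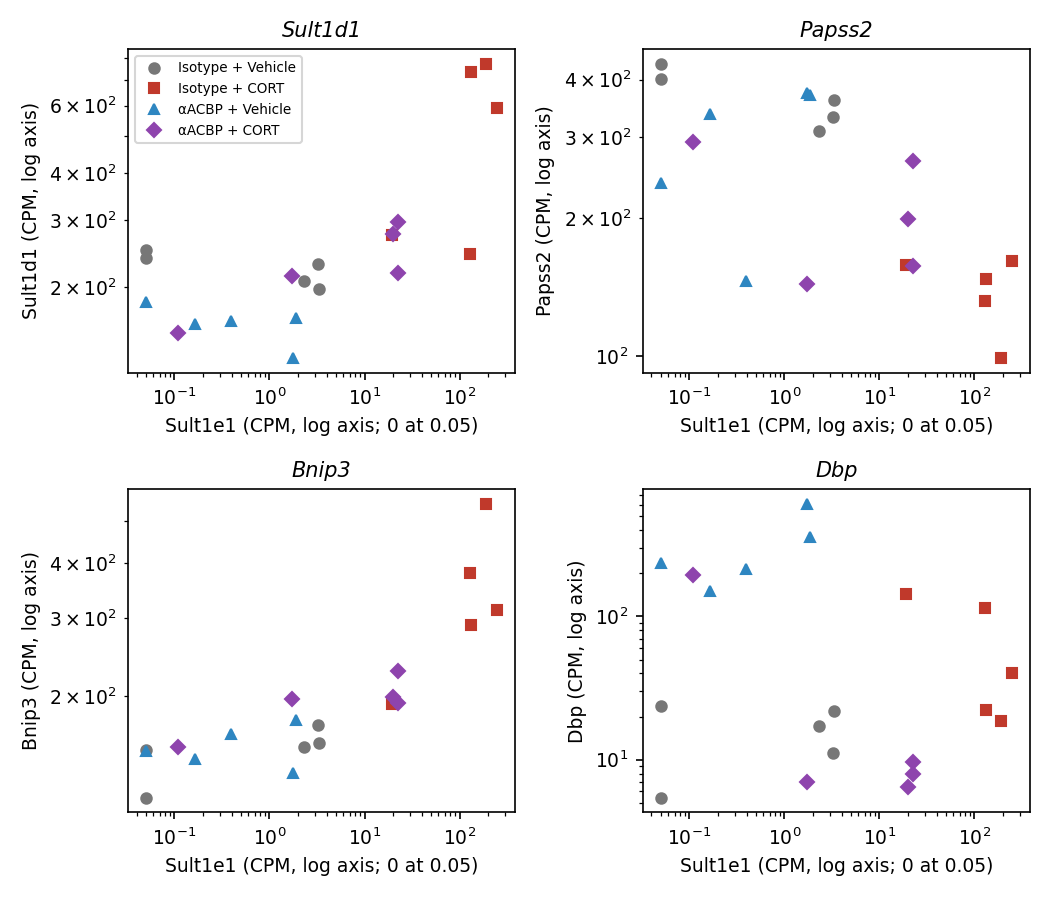
Each panel sets the level of Sult1e1 (CPM, log axis, livers at 0 drawn at 0.05) against that of another gene (CPM, log axis) in the 20 livers. The 5 Isotype + CORT livers had Papss2 at 161 CPM or less, 4 of them lie to the right of all other livers, and the αACBP + CORT liver with 0.108 CPM of Sult1e1 has the highest Dbp of its group, 195 CPM.

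Over the 20 livers, the genes whose pattern was most like that of Sult1e1 were sought by Pearson's correlation of log2 CPM (prior count of 2) among 12003 named genes with a mean of at least 1 CPM. The points share the 4 groups, and they are given with no test. The 10 highest were Bnip3 (r = 0.85), Dcun1d1 (0.85), Slc17a8 (0.84), Paip1 (0.84), Slc30a1 (0.84), Mup20 (0.83), Serinc3 (0.83), Deptor (0.81), Ak4 (0.80) and Slc17a5 (0.80). The median over all genes compared was -0.02 and the 95th percentile 0.55. Some of the 10 also share sequence, so their counts are less certain than those of Sult1e1. Of the 100-base words, 22.2% of Dcun1d1, 19.8% of Slc17a5, 10.7% of Ak4 and 9.62% of Bnip3 occur in other genes' transcripts, and 0% of Slc17a8.

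Bnip3, a mitophagy receptor, was at 151, 153, 157, 117 and 171 CPM in Isotype + Vehicle and at 546, 290, 191, 313 and 380 CPM in Isotype + CORT. It was at 227, 199, 192, 196 and 153 CPM in αACBP + CORT, so that the lowest liver of each CORT group was the one lowest in Sult1e1. Slc30a1, a zinc exporter, had the highest rank correlation of the 10 (Spearman's rho 0.89) and was at 21.6 ± 3.52, 36.9 ± 10.5, 18.1 ± 3.32 and 25.1 ± 6.53 CPM over the groups.

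With the group means subtracted, the 10 genes had r between 0.43 and 0.72. Slc17a8, a vesicular glutamate transporter, was the only one of them also among the 10 highest within groups (r = 0.72). The 5 highest within groups were Kif16b (0.78), Tgfb3 (0.74), Slc17a8, Rbm8a (0.69) and Klf11 (0.69). The 5 lowest over all livers were Lsp1 (-0.87), Tle1 (-0.84), Ppm1j (-0.82), Xaf1 (-0.82) and Ighd (-0.81), and of these Lsp1 and Ighd are known as leukocyte genes. Without the 2 livers farthest from the median Sult1e1 level, the Isotype + CORT replicates 1 and 4, r was 0.72 to 0.85 for the 10 highest.

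Markers of other cells were measured beside these levels. Sult1e1 is also known from fat tissue, and the 6 adipocyte markers summed to 0 to 0.838 CPM in Isotype + CORT and to 0 to 5.93 CPM in Isotype + Vehicle, with Adipoq, Plin1 and Lep at 0 in all Isotype + CORT livers. Kupffer cell and macrophage markers had their lowest median sum in Isotype + CORT, the group highest in Sult1e1. Their sum was 263 to 525 CPM in Isotype + Vehicle, 96.9 to 295 in Isotype + CORT, 353 to 650 in αACBP + Vehicle and 363 to 499 in αACBP + CORT. Single livers did not follow this order: the sum of 96.9 was in Isotype + CORT replicate 2, and replicate 4, highest in Sult1e1, had 166. Of these 6 macrophage markers, Clec4f, Timd4, Vsig4 and Cd5l fell with CORT under isotype, beside 1.43% of all tested genes called lower. Their log2 fold changes were -1.01, -1.61, -1.10 and -1.32 (edgeR adjusted p = 0.015, 0.0418, 0.0197 and 0.0302). Clec4f rose with αACBP under CORT (1.42, edgeR adjusted p = 0.00275), beside 0.504% of all tested genes called higher. The lymphocyte markers summed to 6.5 to 14 CPM in Isotype + Vehicle, 0.709 to 5.54 in Isotype + CORT, 3.57 to 11.6 in αACBP + Vehicle and 2.64 to 5.08 in αACBP + CORT. None of the 4 tested was called by edgeR, and 1 had an unadjusted p under 0.05 with CORT under isotype, beside 15.6% of all tested genes. The part of these cells in the Sult1e1 levels was not tested. Mitochondrial transcripts took 3.94 to 9.03% of counts, with all 4 group ranges overlapping.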

How the data were processed

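Whole-liver RNA of 20 mice was sequenced as paired reads, and the labels put 5 livers in each of the 4 groups. The authors aligned the reads with HISAT2, counted them per gene with HTSeq (union setting, pairs that fit several genes also counted) and deposited raw counts in 1 table, not normalized. The study's methods name GRCm39 and the submitters' processing notes name mm10, and the annotation release is not given in the sources used here. Of the 48440 gene identifiers, 91.41% were found in GENCODE M39. The 5 HTSeq summary lines that name no gene, 59.6 to 63.4% of all deposited counts, were left out. Because pairs that fit several genes were also counted, this is no share of distinct pairs. Whether counting used strand is not given in the sources used here, so antisense partners cannot be told apart, as for Mt2, whose exons are 82.4% overlapped.

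Counts were tested with edgeR 4.0.16 in R 4.3.3 (TMM scaling, filterByExpr, robust quasi-likelihood fit, 1 model of the 4 groups without covariates), with Benjamini-Hochberg adjustment over 16071 genes. The SE given with a log2 fold change is its absolute value divided by the square root of the F statistic of that fit. Total counts of 14934926 to 20299999 per liver put the limit for a count of 0, taken as 3 counts, at 0.145 to 0.205 CPM. The script was tested on simulated data. Sult1e1, the companion lists and the markers were chosen with earlier results of these data known. Named genes were Sult1e1, companion genes called in a comparison or of smallest p in a list, the 10 highest and 5 lowest correlations, the 5 highest within groups, and the 5 nearest coding genes on each side. Predicted genes, clone-style names included, were left out of the correlations. Other genes of the lists, and the clock values of single livers, were named for their roles after their values were seen. Sts and Tf were not analysed here. The values of 1 further gene of the lists are not reported here. Alternatives were DESeq2 1.42.0 (size factors and Wald test), filters, library sizes without the 20 most abundant genes, fits of only the groups compared, a replicate block, and leaving out each liver.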

Additional observations from a re-analysis of the deposited data

Results flagged for a closer look

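Across 76 groups of 5 livers for 19 named genes, 5 held a liver far from the other four by Dixon's test. Chance gives about 1 in 20, or 3.8 of 76, so this number is close to that of chance. The fifth αACBP + CORT liver, which held 0.108 CPM of Sult1e1, was the highest of its group for Dbp at 195 CPM (others 6.44 to 9.61) and for Tef at 328 CPM (others 62.7 to 114). The first Isotype + CORT liver was the lowest for Mt2 at 264 CPM (others 377 to 423) and the highest for Cish at 54.1 CPM (others 22.9 to 29.8). The fourth Isotype + Vehicle liver was the lowest for Bpnt1 at 15.1 CPM (others 31.2 to 33.8). The Sult1e1 groups held no such liver.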

How the results depend on the processing

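The log2 fold changes of Sult1e1 and of the called companion genes kept their direction under every alternative run for them, and other genes had no alternative. For CORT under isotype, 312 genes and 8 companion genes were called; the Wald test of DESeq2 called 527 and 14, and dropping the fold limit gave 514 and 13. For αACBP under CORT (96 and 1), these gave 211 and 4, and 154 and 3, and a fit of only the groups compared gave 27 and 0. For CORT under αACBP (34 and 0), the Wald test called 112 and 14, and companion calls were 2 with 10 counts in every liver and 1 with only the groups compared. For αACBP under vehicle (209 and 10), companion calls were 17 by Wald and 17 with only the groups compared, and no fold limit gave 826 and 16. For αACBP + CORT against Isotype + Vehicle (11 and 0), the Wald test called 60 and 1, and only the groups compared gave 62 genes. For the interaction (23 and 0), calls were 35 and 1 with DESeq2 size factors, 188 and 11 by Wald, 53 genes without the filter, 60 and 3 with 10 counts in every liver, and 41 genes without the 20 most abundant genes in the library sizes. The causes were not tested. Replicate numbers did not pair the livers (same-number deviations correlated at -0.0999 to 0.0969), and a replicate block gave 4 companion calls for CORT under αACBP, 1 for the interaction, and Sult1e1 log2 fold changes of 6.71 and -3.82 for CORT under isotype and αACBP under CORT.
Leaving out 1 liver gave, in the same order of comparisons, 205 to 421, 52 to 191, 5 to 153, 87 to 343, 1 to 23 and 6 to 101 genes, and 5 to 11, 0 to 4, 0 to 13, 4 to 14, 0 to 0 and 0 to 9 companion genes. The extremes came without Isotype + Vehicle replicates 1, 2, 4 and 5, Isotype + CORT replicates 1, 3 and 5, αACBP + Vehicle replicate 3 and αACBP + CORT replicates 3 and 5. The Sult1e1 log2 fold change ranged from 6.00 to 6.67, -3.70 to -3.10, 3.66 to 4.57, -1.69 to -0.73, 2.58 to 3.25 and -2.68 to -1.72. Calls were lost without 1 liver in 16 of 20 fits for Cyp2b10, 13 for Cish, 8 for Sult5a1, 7 each for Selenbp2, Bpnt1 and Dbp, 6 for Cyp7b1, 2 for Abcg5 and 1 for Sult2a3. The Cyp2b10 call was also lost without the filter, without the 20 most abundant genes, with only the groups compared and with the block, those of Selenbp2, Sult5a1, Bpnt1 and Cish without the filter, and that of Cyp7b1 with the block. Of the 10 genes most like Sult1e1, 6 stayed among the 10 highest by Spearman's rho and 1 within groups. With 10 counts required in every liver, Sult1e1 itself was left out.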
